A study of Mus musculus with 15 samples.

Results

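The genes described here encode the enzymes and transporters that take glucose into a cell, carry it through glycolysis or the pentose phosphate pathway, and hand its carbon to lactate or to the mitochondrion. The set holds 37 genes named by symbol. A probe set counted for a gene where the array annotation gave it exactly that symbol, and the brightest of a gene's probe sets stood for the gene. By this rule 34 of the 37 genes were measured, out of 18194 genes in all, and Gpi1, Eno1 and G6pdx were not analysed here.

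The samples were 15 arrays of primary acute myeloid leukaemia cells extracted from the spleens of leukaemic SCID/Beige mice. Each host had received NRASG12V/Mll-AF9 leukaemia cells by tail vein and was left for 20 days, until the white cell count passed 100000 per µl. All groups share this genotype and the Mll-AF9 fusion, and doxycycline turns the NRASG12V transgene off. The RAS-ON group was vehicle-treated at 0 h and has 5 arrays. The RAS-OFF groups were treated with doxycycline, by intraperitoneal injection at the outset and then in the drinking water. They were taken at 48, 60, 72, 84 and 96 h with 2 arrays each, 10 in all. The samples hold no vehicle group at these later times and no doxycycline-treated group without the transgene. Loss of NRASG12V, doxycycline itself and elapsed time therefore cannot be told apart in any comparison below. Nothing in the labels says that replicates were separate animals, and the p-values below reflect array-to-array spread, which may be technical.

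Glycolysis splits a hexose into a pair of pyruvate molecules and yields ATP without oxygen. The pentose phosphate pathway branches off after hexokinase: its oxidative arm makes NADPH, and its non-oxidative arm makes the ribose of nucleotides and returns the remaining carbon to glycolysis. Many of these steps are served by several isoenzymes with tissue-biased expression, and many of the genes carry binding sites for the hypoxia-inducible factors and for Myc. Proliferating blood cells and leukaemias typically take up much glucose and release lactate. Mature red cells, which have no mitochondria, depend on glycolysis through their own set of isoenzymes.

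Values are log2 intensities, and a change is the mean of the 5 RAS-OFF group means minus the RAS-ON mean, with its standard error (SE) from limma. A gene was called where the Benjamini-Hochberg adjusted p over all genes was below 0.05. Array medians lay between 150.0 and 156.5 on the linear scale, and arrays of a group correlated at 0.987 to 0.997. RAS-ON arrays 1 to 3 and arrays 4 and 5 formed 2 sets: log2 differences between arrays had an SD of 0.247 to 0.343 across the sets, 0.178 between arrays 4 and 5, and 0.185 to 0.286 among arrays 1 to 3. Earlier results also set replicate 1 of the 48, 84 and 96 h groups apart from the other RAS-OFF arrays.

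The labelled cell type was checked against 10 genes of myeloid leukaemia identity, such as Ptprc, Lyz2, Csf1r and Mpo. All 10 lay above the median gene in mean level, and their mean level was 11.71 to 11.93 in RAS-ON and 11.09 to 11.77 in RAS-OFF. Of the 10, 5 fell, Mpo and Spi1 among them by 1.32 and 1.11, 2 rose and 3 were not called. Markers of other cells moved with the treatment too. All 14 measured erythroid markers of 16 listed rose, with a mean level of 10.93 to 11.31 in RAS-ON and 12.42 to 12.84 in RAS-OFF. None of these erythroid genes lay below the median gene in mean level. Of 14 red pulp macrophage markers 10 rose and 3 fell, with a mean level of 9.46 to 9.86 in RAS-ON and 9.89 to 10.30 in RAS-OFF. Of 11 measured late neutrophil granule genes 8 rose and 0 fell, with a mean level of 12.12 to 12.55 in RAS-ON and 12.67 to 13.28 in RAS-OFF. Of 7 measured monocyte markers 5 fell and 0 rose, and their mean level went from 11.71 to 12.05 in RAS-ON to 10.42 to 11.10 in RAS-OFF. Of 9 measured megakaryocyte markers 8 rose and 0 fell, with a mean level of 10.18 to 10.53 in RAS-ON and 10.70 to 11.01 in RAS-OFF. Of 10 stroma and endothelium markers 7 rose and 1 fell, with a mean level of 9.09 to 9.20 in RAS-ON and 9.39 to 9.71 in RAS-OFF. Of 7 measured natural killer cell markers 5 rose and 0 fell, with a mean level of 7.57 to 7.75 in RAS-ON and 7.77 to 8.27 in RAS-OFF, and 6 lay below the median gene. Of 7 measured B cell markers 3 rose and 4 fell, and of 6 measured T cell markers 2 rose and 1 fell, with 6 and 4 of them below the median gene. The RNA came from bulk samples, in which fewer cells of a type and less RNA per cell cannot be told apart, and the part of these other cells in the results below was not tested.

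Glucose metabolism genes were shifted downward in RAS-OFF against RAS-ON, with a minority moving the other way. Of the 34 measured genes 19 fell, 10 rose and 5 were not called. Over all genes 48.8% were called, 28.7% lower and 20.1% higher, against 55.9% and 29.4% of the members. The median change of the members was −0.33, against −0.04 over all genes. Most members were bright: 3 of 34 lay below the median gene in mean level, against 9073 of all 18194 genes. The shares over all genes, here and below, were not matched for level. With the replicate number as a block the number that rose was 5 in place of 10, although the numbers were not found to pair the arrays. Numbers 3, 4 and 5 occur only in RAS-ON, so those arrays drop out of the comparison under this block. It sets RAS-OFF against RAS-ON arrays 1 and 2 alone, here and wherever the replicate block is named below. Without replicate 1 of the 48, 84 and 96 h groups 19 fell and 9 rose. In 13 of the genes that fell every RAS-OFF array lay below every RAS-ON array, and in 7 of those that rose every RAS-OFF array lay above. Over all genes such separation was seen for 12% downward and 9.35% upward. In 10 members the change was called and at least 1 log2 unit in size, where 3.8% of all genes met both conditions. They were Slc2a1, Slc2a6, Pfkp, Tpi1, Pgam1, Pkm and Slc16a3, all lower, and Pfkm, Bpgm and Slc16a1, all higher.

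**Figure D1:**
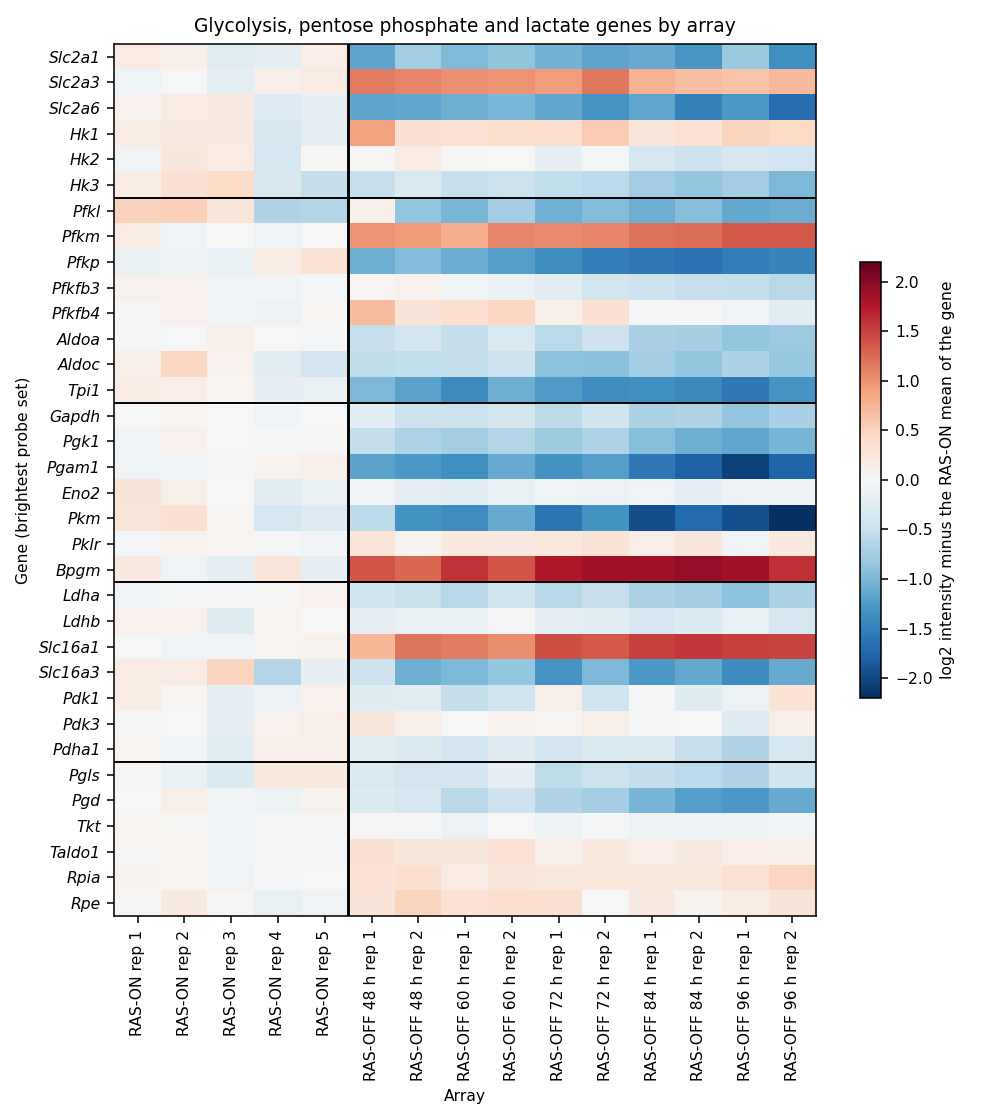
Log2 intensity of each of the 34 measured genes on each of the 15 arrays, shown as the difference from the gene's RAS-ON mean, with genes in pathway order and arrays in order of group and time. Pfkm, Bpgm, Slc16a1 and Slc2a3 are above the RAS-ON mean in all 10 RAS-OFF arrays, while Pfkp, Tpi1, Pgk1, Pgam1 and Pkm are below it in all 10.

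**Figure D2:**
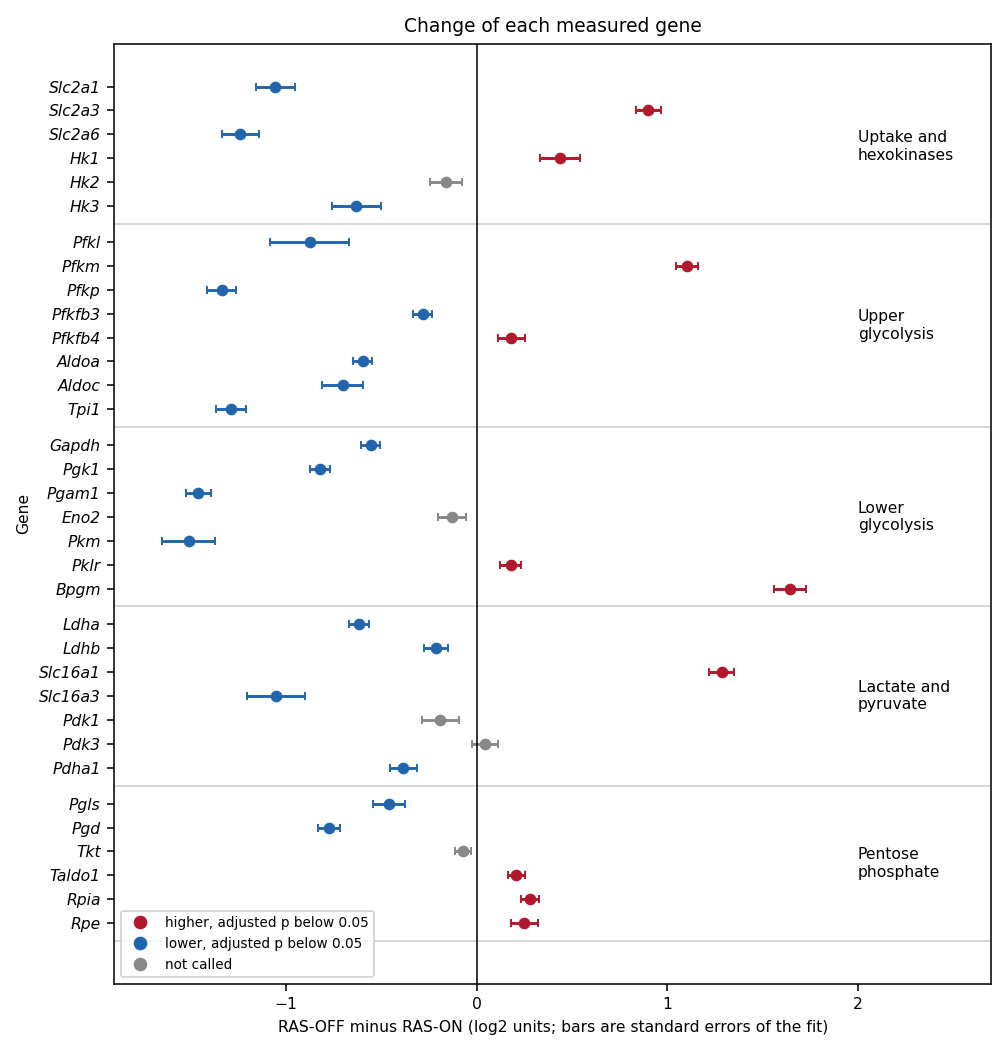
Change RAS-OFF against RAS-ON in log2 units for each measured gene, points with bars of 1 SE, in pathway order. The changes run from −1.51 for Pkm to 1.65 for Bpgm, and 29 of 34 were called.

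Glucose enters a cell through carriers of the Slc2a family and is trapped by hexokinases. Of the 6 measured genes of this step 3 fell, 2 rose and 1 was not called. Slc2a1 encodes GLUT1, the carrier found in most dividing cells. Its levels were 10.01, 9.93, 9.57, 9.62 and 9.97 in RAS-ON arrays 1 to 5, and in RAS-OFF the lowest was 8.47, the median 8.75 and the highest 9.05. The groups did not overlap, and Slc2a1 fell by 1.06 ± 0.10 (adjusted p = 7.15e-07). Slc2a6 encodes GLUT6, a carrier known from lysosomal membranes of macrophages. Its levels were 8.97, 9.06, 9.07, 8.58 and 8.67 in RAS-ON, and 7.19, 7.72 and 7.87 as lowest, median and highest in RAS-OFF. It fell by 1.24 ± 0.10 (adjusted p = 7.45e-08), again without overlap, though RAS-ON arrays 4 and 5 were its lowest RAS-ON values.

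The neuronal-type, high-affinity carrier GLUT3, encoded by Slc2a3, moved the opposite way. Its levels were 11.66, 11.75, 11.55, 11.86 and 11.94 in RAS-ON, and 12.38, 12.71 and 12.91 as lowest, median and highest in RAS-OFF. Slc2a3 rose by 0.90 ± 0.07 (adjusted p = 3.53e-08), and no RAS-OFF array reached down into the RAS-ON range. Averaging all its probe sets in place of the brightest gave a rise of 0.50. Among the hexokinases, Hk3 is the form typical of myeloid cells. Its levels were 11.76, 11.93, 12.00, 11.25 and 11.08 in RAS-ON, and 10.62, 11.04 and 11.27 in RAS-OFF. Hk3 fell by 0.63 ± 0.13 (adjusted p = 0.000987), but only RAS-ON arrays 1 to 3 stood clear of the RAS-OFF range. With RAS-ON arrays 4 and 5 as the only controls the change was −0.19 (adjusted p = 0.0713).

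Hk1 is the hexokinase of brain and red cells. Its levels were 11.81, 11.84, 11.84, 11.29 and 11.46 in RAS-ON, and 11.91, 12.03 and 12.53 in RAS-OFF, so the groups were separate by a narrow gap. Hk1 rose by 0.44 ± 0.10 (adjusted p = 0.00282). The average of its probe sets gave 0.25 (adjusted p = 0.24), and the replicate block gave 0.26 (adjusted p = 0.0859). With RAS-ON arrays 1 to 3 as the only controls the Hk1 change was 0.25, and with arrays 4 and 5 it was 0.71. Hk2, the inducible hexokinase of muscle and of many tumours, had a change of −0.16 ± 0.08 (adjusted p = 0.126). Its 5 RAS-ON levels, 9.78 to 10.39, spanned most of the RAS-OFF range of 9.70 to 10.32. Dropping RAS-ON replicate 4 gave an Hk2 change of −0.25 (adjusted p = 0.00566). It was −0.24 (adjusted p = 0.0375) with the replicate block and −0.28 (adjusted p = 0.006) with RAS-ON arrays 1 to 3. With arrays 4 and 5 it was 0.01 (adjusted p = 0.934).

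Phosphofructokinase commits sugar to glycolysis and is built from liver (Pfkl), muscle (Pfkm) and platelet (Pfkp) type subunits. The 3 subunit genes did not move alike. Pfkp had levels of 10.46, 10.50, 10.46, 10.78 and 10.92 in RAS-ON, and 8.99, 9.21 and 9.68 as lowest, median and highest in RAS-OFF. It fell by 1.34 ± 0.08 (adjusted p = 2.89e-09), a linear fold of 2.53, with the groups far apart. The average of its probe sets fell by 0.81 (adjusted p = 2.29e-07). Pfkm had levels of 9.50, 9.24, 9.36, 9.25 and 9.35 in RAS-ON, and 10.15, 10.41 and 10.69 in RAS-OFF. It rose by 1.10 ± 0.06 (adjusted p = 9.98e-10), a linear fold of 2.15, also without overlap.

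Pfkl had levels of 11.08, 11.10, 10.83, 9.91 and 9.93 in RAS-ON, and 9.44, 9.59 and 10.68 in RAS-OFF. RAS-ON arrays 4 and 5 therefore lay inside the RAS-OFF range and arrays 1 to 3 above it. The overlap came from 48 h replicate 1, at 10.68, and 9 of 10 RAS-OFF arrays lay below every RAS-ON array. Its change was −0.88 ± 0.21 (adjusted p = 0.00278), or −1.40 with the replicate block and −0.56 with the average of its probe sets, and it became −1.31 with RAS-ON arrays 1 to 3 as the only controls and −0.22 (adjusted p = 0.324) with arrays 4 and 5 as the only controls. Pfkfb3 and Pfkfb4 encode bifunctional enzymes that make and break the main allosteric activator of phosphofructokinase. Pfkfb3 had levels of 8.94, 8.94, 8.76, 8.79 and 8.81 in RAS-ON and 8.24, 8.52 and 8.94 in RAS-OFF, with overlap, and fell by 0.28 ± 0.05 (adjusted p = 0.000292). The average of its probe sets fell by 0.16 (adjusted p = 0.00387). Pfkfb4 had levels of 9.39, 9.46, 9.31, 9.25 and 9.41 in RAS-ON and 9.12, 9.55 and 10.06 in RAS-OFF, so the groups overlapped broadly. Its change of 0.18 ± 0.07 (adjusted p = 0.0451) did not pass the test in 20 of 30 alternative settings, the removal of any RAS-ON array but replicate 2 among them, with adjusted p up to 0.385.

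Aldolase cleaves the hexose bisphosphate and triose phosphate isomerase (Tpi1) equates its products. Of the 8 measured genes from phosphofructokinase to Tpi1, 6 fell and 2 rose. Aldoa, the aldolase of muscle and red cells, had levels of 12.93, 12.96, 13.08, 12.97 and 12.94 in RAS-ON and 12.11, 12.42 and 12.64 in RAS-OFF. It fell by 0.60 ± 0.05 (adjusted p = 1.72e-07), without overlap. Aldoc, known as the brain aldolase, had levels of 9.16, 9.49, 9.12, 8.78 and 8.60 in RAS-ON and 8.12, 8.31 and 8.57 in RAS-OFF. It fell by 0.70 ± 0.11 (adjusted p = 8.42e-05) overall and by 0.36 with RAS-ON arrays 4 and 5 as the only controls (adjusted p = 0.00098), arrays that sat just above the RAS-OFF range. Tpi1 had levels of 12.73, 12.71, 12.61, 12.39 and 12.41 in RAS-ON and 10.99, 11.25 and 11.58 in RAS-OFF. Every RAS-OFF array was lower than every RAS-ON array, and the fall was 1.29 ± 0.08 (adjusted p = 5.49e-09), a linear fold of 2.44.

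The lower part of glycolysis oxidises triose phosphate and harvests ATP. Of the 7 measured genes of this part 4 fell, 2 rose and 1 was not called. Gapdh, the triose phosphate dehydrogenase often used as a reference gene, had levels of 14.08, 14.12, 14.09, 14.03 and 14.08 in RAS-ON and 13.23, 13.55 and 13.82 in RAS-OFF. It fell by 0.56 ± 0.05 (adjusted p = 3.73e-07) with no overlap. It was read through the array's own control probe sets, the brightest of which lies toward the 3′ end. The 3′ minus 5′ difference between these control probe sets was 1.22 on 96 h replicate 1 and 0.10 to 0.35 on the other arrays. A part of RNA integrity in the Gapdh value was not tested, nor in other values of that array and the slopes that use it.

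Pgk1, the first ATP-making step, had levels of 12.88, 13.07, 12.96, 12.95 and 12.99 in RAS-ON and 11.83, 12.20 and 12.45 in RAS-OFF. It fell by 0.82 ± 0.05 (adjusted p = 9.06e-09), without overlap. Pgam1, the phosphoglycerate mutase of most tissues, had levels of 12.92, 12.95, 12.95, 13.07 and 13.12 in RAS-ON and 10.94, 11.66 and 11.89 in RAS-OFF. Its fall of 1.46 ± 0.07 (adjusted p = 3.26e-10), a linear fold of 2.75, left a gap of about 1 log2 unit between the groups. Eno2, the neuronal enolase, had a change of −0.13 ± 0.07 (adjusted p = 0.162), with an intensity at the 11.6th percentile of genes. Dropping RAS-ON replicate 4 gave an Eno2 change of −0.19 (adjusted p = 0.0435). It was −0.33 (adjusted p = 0.00214) with the replicate block and −0.26 (adjusted p = 0.00445) with RAS-ON arrays 1 to 3 as the only controls. With arrays 4 and 5 it was 0.07 (adjusted p = 0.447).

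Pkm and Pklr encode pyruvate kinase, the last ATP-making step, the former in most tissues and the latter in liver and red cells. Pkm had levels of 12.83, 12.90, 12.62, 12.17 and 12.27 in RAS-ON and 10.33, 11.07 and 11.98 in RAS-OFF. It fell by 1.51 ± 0.14 (adjusted p = 4.27e-07), a linear fold of 2.85, and the highest RAS-OFF array came near RAS-ON array 4 without reaching it. Pklr had levels of 9.07, 9.20, 9.17, 9.11 and 9.07 in RAS-ON and 9.05, 9.33 and 9.40 in RAS-OFF, with overlap. Its brightest probe set rose by 0.18 ± 0.06 (adjusted p = 0.0158), and the average of its probe sets by 0.60 (adjusted p = 3.37e-06). For Pklr the adjusted p was 0.135 with the replicate block and 0.08 with RAS-ON arrays 1 to 3 as the only controls.

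Bpgm makes the bisphosphoglycerate that lowers the oxygen affinity of haemoglobin, and it is known as a red cell enzyme. Its levels were 10.52, 10.22, 10.12, 10.59 and 10.14 in RAS-ON and 11.58, 12.00 and 12.25 in RAS-OFF. Every RAS-OFF array was higher than every RAS-ON array by a wide margin, and Bpgm rose by 1.65 ± 0.08 (adjusted p = 9.64e-10), a linear fold of 3.13. Its 3 probe sets rose by 1.65 to 1.93. The erythroid marker list rose beside it, with a median change of 1.51 over 14 genes, and its part in the rises of Bpgm, Pklr and Hk1 was not tested.

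Pyruvate is reduced to lactate by lactate dehydrogenase and leaves the cell through monocarboxylate transporters, or enters the mitochondrion and meets pyruvate dehydrogenase. Of the 7 measured genes of this branch 4 fell, 1 rose and 2 were not called. Ldha, whose product favours lactate formation, had levels of 12.77, 12.81, 12.80, 12.88 and 12.94 in RAS-ON and 11.93, 12.23 and 12.40 in RAS-OFF. It fell by 0.62 ± 0.05 (adjusted p = 2.26e-07) with the groups apart. Ldhb, whose product favours lactate use, had levels of 9.87, 9.88, 9.51, 9.84 and 9.79 in RAS-ON, and RAS-OFF ranged from 9.41 to 9.75 with a median of 9.59. Its brightest probe set fell by 0.21 ± 0.07 (adjusted p = 0.0139), with RAS-ON array 3 inside the RAS-OFF range. The other 3 Ldhb probe sets, all dimmer, had changes of −0.62 to −1.10, and the average over all of them fell by 0.65 (adjusted p = 0.000755). With RAS-ON arrays 1 to 3 as the only controls the adjusted p for the brightest was 0.0689.

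The lactate transporters Slc16a1 (MCT1) and Slc16a3 (MCT4) went opposite ways. Slc16a1 had levels of 11.51, 11.42, 11.46, 11.58 and 11.59 in RAS-ON and 12.24, 12.89 and 13.07 in RAS-OFF. It rose by 1.29 ± 0.07 (adjusted p = 9.75e-10), a linear fold of 2.44, and the average of its probe sets by 0.75 (adjusted p = 1.43e-06). Slc16a3, known as the exporter of strongly glycolytic cells, had levels of 7.78, 7.76, 8.09, 6.96 and 7.43 in RAS-ON and 6.23, 6.52 and 7.15 in RAS-OFF. It fell by 1.05 ± 0.15 (adjusted p = 4.35e-05), with 9 of 10 RAS-OFF arrays below every RAS-ON array, and by 0.64 with RAS-ON arrays 4 and 5 as the only controls (adjusted p = 0.00406).

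Pdha1, the catalytic subunit of pyruvate dehydrogenase, had levels of 11.20, 11.08, 10.91, 11.25 and 11.25 in RAS-ON and 10.48, 10.79 and 10.90 in RAS-OFF. It fell by 0.38 ± 0.07 (adjusted p = 0.000324), the groups being separated only narrowly at RAS-ON array 3. Pdk1 and Pdk3 encode kinases that inhibit the complex. Pdk1 had a change of −0.19 ± 0.10 (adjusted p = 0.122), or of −0.25 without 72 h replicate 1 (adjusted p = 0.027) and −0.26 without the 96 h arrays (adjusted p = 0.0369), and Pdk3 of 0.04 ± 0.07 (adjusted p = 0.624). In both genes the groups overlapped. Their RAS-ON ranges were 9.32 to 9.67 and 9.94 to 10.26, and their RAS-OFF ranges 8.98 to 9.80 and 9.83 to 10.37.

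The 6 measured pentose phosphate genes split by arm on their brightest probe sets: both oxidative genes fell, and 3 of 4 non-oxidative genes rose. Pgd, which makes NADPH in the oxidative arm, had levels of 12.86, 13, 12.81, 12.76 and 12.95 in RAS-ON and 11.62, 12.18 and 12.58 in RAS-OFF. It fell by 0.77 ± 0.06 (adjusted p = 4.8e-08), without overlap. Pgls, the lactonase before it, had levels of 11.48, 11.31, 11.16, 11.67 and 11.67 in RAS-ON and 10.80, 11.00 and 11.26 in RAS-OFF, and fell by 0.46 ± 0.08 (adjusted p = 0.000329). RAS-ON array 3 lay inside the RAS-OFF range and the other RAS-ON arrays above it. In Pgls 9 of 10 RAS-OFF arrays lay below every RAS-ON array.

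In the non-oxidative arm Rpia, ribose phosphate isomerase, had levels of 11.50, 11.47, 11.35, 11.39 and 11.42 in RAS-ON and 11.62, 11.68 and 11.90 in RAS-OFF. It rose by 0.28 ± 0.05 (adjusted p = 0.000147), without overlap. Taldo1, transaldolase, had levels of 12.80, 12.84, 12.71, 12.80 and 12.73 in RAS-ON and 12.89, 12.98 and 13.11 in RAS-OFF. It rose by 0.21 ± 0.05 (adjusted p = 0.00149), with a small gap between the groups, and its adjusted p with the replicate block was 0.065. Rpe, the epimerase, rose by 0.25 ± 0.07 (adjusted p = 0.009) with overlap, its RAS-ON levels being 9.85 to 10.22 and its RAS-OFF levels 10.02 to 10.52. The average of the Rpe probe sets gave 0.03 (adjusted p = 0.587), and the replicate block 0.14 (adjusted p = 0.264). Tkt, transketolase, ranged from 13.62 to 13.71 in RAS-ON and from 13.54 to 13.70 in RAS-OFF, and its change was −0.07 ± 0.04 (adjusted p = 0.204). The average of the Tkt probe sets fell by 0.22 (adjusted p = 0.0181), so by that measure 1 non-oxidative gene fell, Rpe was not called and 2 rose.

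The 5 times were each set against the same 5 RAS-ON arrays, so these comparisons share their controls. At 48 h 14 members were lower and 9 higher, where 27.4% of all genes were called, 13.7% in each direction. At 60 h the counts were 15 lower and 8 higher, where 25.8% of all genes were called, 14.3% lower and 11.5% higher. At 72 h 18 members were lower and 7 higher, beside 31.8% of all genes, 18.3% lower and 13.4% higher. At 84 h 20 members were lower and 5 higher, beside 36.8% of all genes, 21.8% lower and 15% higher. At 96 h 20 members were lower and 6 higher, beside 37.6% of all genes, 20.9% lower and 16.7% higher. Replicate 1 of the 96 h group is the array with the large Gapdh 3′ minus 5′ difference given above. Leaving out a single array lowered some of these counts. That time then rested on the remaining array alone, so the drop cannot show that the left-out array decided a count. Leaving out 48 h replicate 2 left 8 lower at 48 h. Leaving out 60 h replicate 1 or 2 left 5 or 4 higher at 60 h, and leaving out either 72 h replicate left 4 higher at 72 h. The median change of the members was −0.27, −0.33, −0.34, −0.45 and −0.54 from 48 to 96 h.

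A slope through the 5 RAS-OFF times asks which genes kept moving after 48 h. Of the 34 members 12 had a called downward slope and 3 a called upward one, against 8.76% and 5% of all genes. Pgd had changes of −0.34, −0.53, −0.70, −1.12 and −1.18 from the first to the last time. Its slope was −0.23 ± 0.02 per 12 h (adjusted p = 6.84e-05). Pkm ran from −0.94 at 48 h to −2.08 at 96 h, with a slope of −0.29 ± 0.06 (adjusted p = 0.00376), and Pgam1 from −1.22 to −1.91, with a slope of −0.18 ± 0.03 (adjusted p = 0.000593). The phosphofructokinase regulators Pfkfb3 and Pfkfb4 fell through the course. Pfkfb2, a related gene outside the set, rose by 0.72 ± 0.10 (adjusted p = 3.27e-05), with a slope of 0.14 ± 0.04 (adjusted p = 0.0314). Pfkfb4 had a change of 0.49 at 48 h (adjusted p = 0.00365) and of −0.17 at 96 h (adjusted p = 0.257), with a slope of −0.17 ± 0.03 (adjusted p = 0.00123). Pfkfb3 went from 0.07 at 48 h (adjusted p = 0.522) to −0.57 at 96 h (adjusted p = 3.9e-05), with a slope of −0.16 ± 0.02 (adjusted p = 0.000222). With the average of its probe sets the Pfkfb3 slope was −0.05 (adjusted p = 0.0415), and its second, dimmer probe set had a slope of 0.06 (adjusted p = 0.108).

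Slc16a1 rose further, from 0.95 at 48 h to 1.49 at 96 h, with a slope of 0.15 ± 0.03 (adjusted p = 0.00167), which the average of its probe sets gave as 0.09 (adjusted p = 0.0761). Pfkm rose from 0.97 to 1.35, with a slope of 0.11 ± 0.02 (adjusted p = 0.00706), or 0.139 as its adjusted p without the 96 h arrays. Slc2a3 came back part of the way, from 1.11 at 48 h to 0.67 at 96 h, with a slope of −0.12 ± 0.03 (adjusted p = 0.00923). Without 48 h replicate 1 or 96 h replicate 1 its adjusted p was 0.068 or 0.0535. Hk2 went from 0.10 at 48 h to −0.39 at 96 h, a slope of −0.14 ± 0.03 (adjusted p = 0.0142), which gave an adjusted p of 0.0685 without 48 h replicate 2 and 0.0613 without 96 h replicate 2. The slopes of Bpgm, 0.12 ± 0.03 (adjusted p = 0.0279), and of Ldha, −0.09 ± 0.02 (adjusted p = 0.0134), missed the threshold without some single arrays. Without 96 h replicate 1 they were 0.10 and −0.07, and without 48 h replicate 1 they were 0.13 and −0.08. The Bpgm slope also missed it without 48 h replicate 2 (slope 0.11), 60 h replicate 2 (0.11) or 84 h replicate 2 (0.12). Each of these fits leaves a single array at that time, and precision falls with it. Without replicate 1 of the 48, 84 and 96 h groups, which leaves fewer arrays, 4 downward and 0 upward slopes were called.

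**Figure D3:**
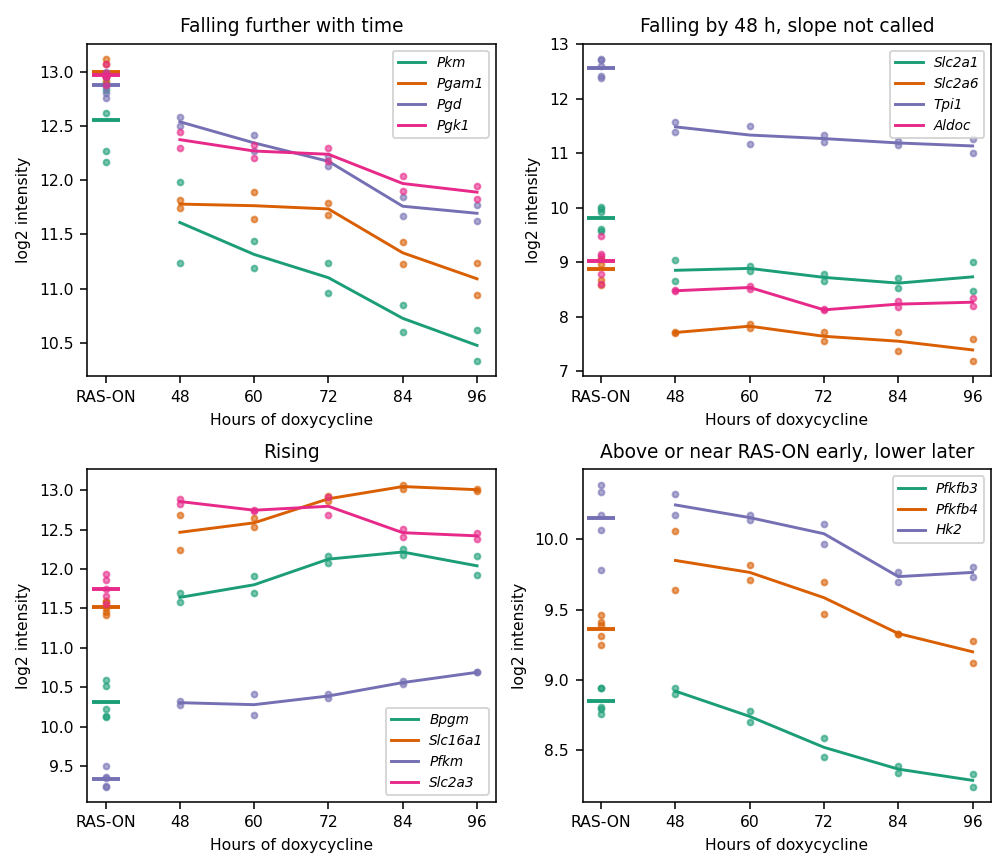
Log2 intensity of selected members on each array against hours of doxycycline, a point per array. RAS-ON is set apart at the left with a dash at its mean, and lines join the RAS-OFF group means. Pkm, Pgam1 and Pgd go on falling from 48 to 96 h, Slc16a1 and Pfkm go on rising, and Pfkfb4 is above its RAS-ON mean at 48 h and below it at 96 h.

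Isoforms of one step were compared within each array as the difference of their log2 levels, which removes what an array's scale does to both. A difference mixes 2 probe sets, so only its change between groups was read. Of 15 pairs 11 changed by an exact two-sided permutation test over 3003 assignments of arrays, with p-values adjusted over the 15 pairs. The smallest p it allows is 0.000333, which gave an adjusted p of 0.000555. Pfkm minus Pfkp ranged from −1.57 to −0.96 in RAS-ON and from 0.61 to 1.59 in RAS-OFF, a change of 2.44 (exact permutation adjusted p = 0.000555). Slc16a1 minus Slc16a3 ranged from 3.37 to 4.62 in RAS-ON and from 5.09 to 6.79 in RAS-OFF, a change of 2.34 with the same adjusted p.

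Slc2a1 minus Slc2a3 ranged from −2.24 to −1.65 in RAS-ON and from −4.25 to −3.37 in RAS-OFF, a change of −1.96. Pkm minus Pklr ranged from 3.06 to 3.75 in RAS-ON and from 1.00 to 2.60 in RAS-OFF, a change of −1.69. Hk1 minus Hk3 ranged from −0.16 to 0.38 in RAS-ON and from 0.71 to 1.47 in RAS-OFF, a change of 1.07. In these pairs the groups did not overlap, and the exact permutation adjusted p was 0.000555 in each. Pfkl minus Pfkm (−1.98), Slc2a3 minus Slc2a6 (2.14), Pfkfb3 minus Pfkfb4 (−0.46), Hk1 minus Hk2 (0.60) and Hk2 minus Hk3 (0.47) also changed. The change of Hk2 minus Hk3 was 0.20 with RAS-ON arrays 4 and 5 as the only controls (exact permutation adjusted p = 0.175). Ldha minus Ldhb changed by −0.40, from 2.90 to 3.30 in RAS-ON to 2.32 to 2.81 in RAS-OFF, but by 0.04 (exact permutation adjusted p = 0.803) with the average of all probe sets.

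In the other 4 pairs the exact permutation adjusted p missed the threshold. The change was 0.46 for Pfkl minus Pfkp (0.147), 0.18 for Slc2a1 minus Slc2a6 (0.147), −0.23 for Pdk1 minus Pdk3 (0.147) and 0.11 for Aldoa minus Aldoc (0.426). With RAS-ON arrays 1 to 3 as the only controls Aldoa minus Aldoc changed by 0.32 (adjusted p = 0.0282). With RAS-ON arrays 4 and 5 Pfkl minus Pfkp changed by 1.34 (adjusted p = 0.0207), and with arrays 1 to 3 it was −0.12 (adjusted p = 0.524). Slc2a1 minus Slc2a6 changed by 0.27 without RAS-ON replicate 5 (adjusted p = 0.0262), by 0.33 with RAS-ON arrays 1 to 3 (adjusted p = 0.0175) and by 0.23 with the average of probe sets (adjusted p = 0.0404). Pdk1 minus Pdk3 changed by −0.34 without the 96 h arrays (adjusted p = 0.0359). All of these are exact permutation tests adjusted over the pairs. The erythroid, monocyte and macrophage markers given above moved over the same arrays, and their part in these isoform differences was not tested.

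**Figure D4:**
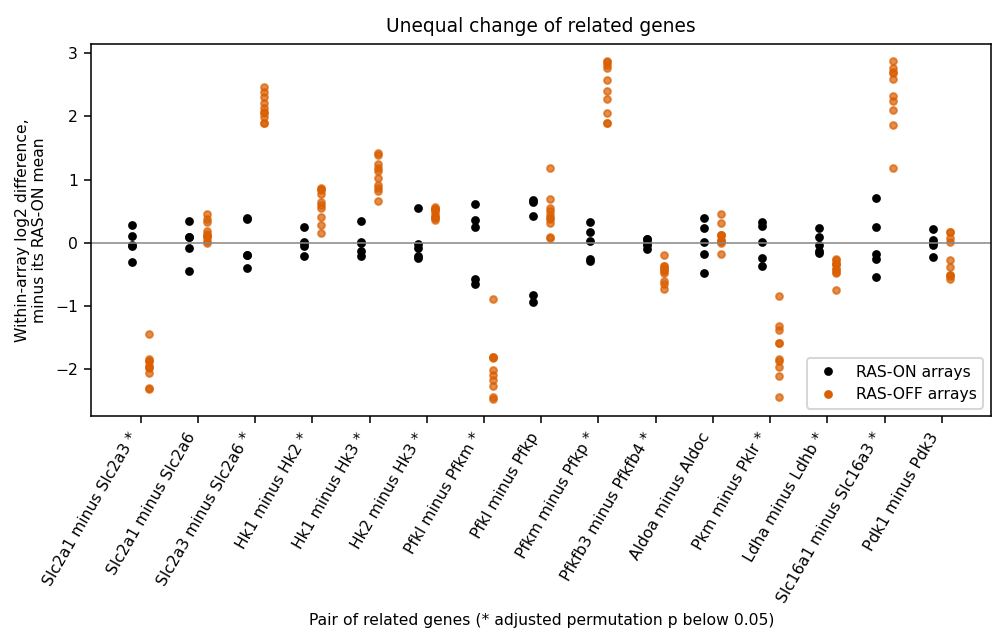
Within-array difference of log2 level for the isoform pairs, minus the RAS-ON mean of each pair, a point per array, RAS-ON against RAS-OFF. RAS-ON and RAS-OFF points do not overlap for Pfkm minus Pfkp, Slc16a1 minus Slc16a3, Slc2a1 minus Slc2a3, Pkm minus Pklr and Hk1 minus Hk3.

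The genes were covered by 76 probe sets, and 21 genes had more than 1. In 18 of these 21 all probe sets had changes of the same sign. Pdk1 alone had probe sets called in both directions, with changes of 0.43 and −0.59. Its brightest probe set (−0.19) and its dimmest (−0.04) were not called, so no direction can be given for the gene. The second Hk1 probe set had a change of 0.07, and the other Rpe probe sets of −0.15 and 0.00. The dimmest Slc2a3 probe sets had changes of 0.12 and −0.09, neither of them called.

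**Figure D5:**
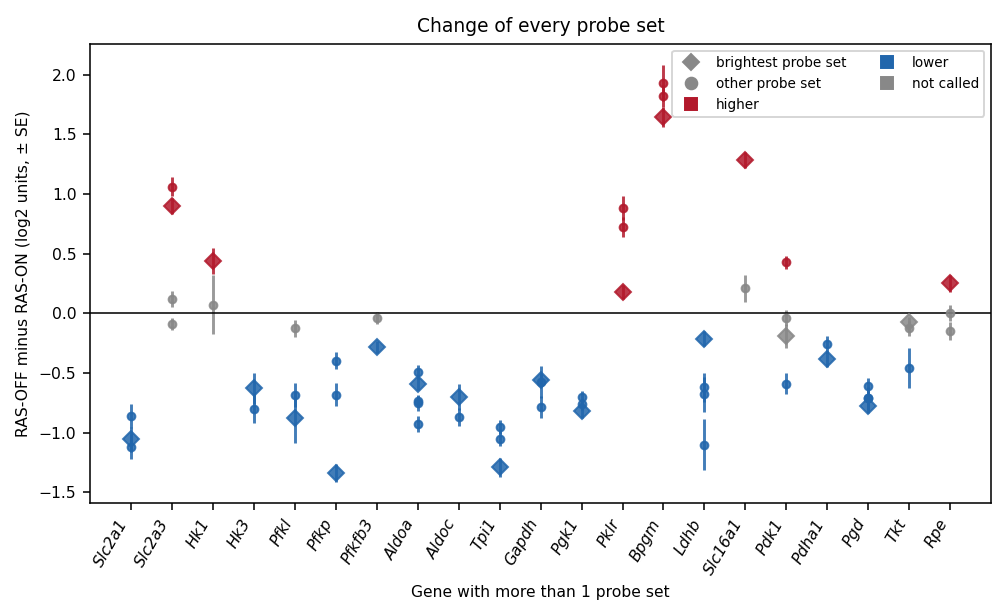
Change RAS-OFF against RAS-ON in log2 units for every probe set of the 21 members with more than 1, a point per probe set, with the brightest marked. In 18 genes the points lie on the same side of 0, and those of Slc2a3, Pdk1 and Rpe lie on both sides.

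Other genes of glucose metabolism were read from listed groups for context. Over all genes 28.7% fell and 20.1% rose, with a median change of −0.04, and counts near or under those shares say nothing of a list. Of 30 measured further isoforms of the same steps 13 fell and 5 rose, with a median change of −0.08. The transporter gene Slc16a4 rose by 1.20 ± 0.16 (adjusted p = 1.99e-05). Tigar, a bisphosphatase that diverts sugar away from glycolysis, fell by 1.05 ± 0.08 (adjusted p = 5.95e-08), and Fbp1, a gluconeogenic bisphosphatase, by 1.02 ± 0.22 (adjusted p = 0.00149). Averaging probe sets gave 0.61 for Slc16a4, and Fbp1 fell by 0.55 with RAS-ON arrays 1 to 3 as the only controls and by 1.72 with arrays 4 and 5 as the only controls.

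Of 13 measured genes of pyruvate entry and its control 3 fell and 1 rose, both under the share of all genes. Pcx, pyruvate carboxylase, rose by 0.78 ± 0.08. Pdp1, the phosphatase that reactivates pyruvate dehydrogenase, fell by 0.64 ± 0.07. Mpc1, part of the mitochondrial pyruvate carrier, fell by 0.34 ± 0.09 (adjusted p = 0.00431), with an adjusted p of 0.0618 under the replicate block. The Mpc1 change was −0.22 (adjusted p = 0.0564) with RAS-ON arrays 1 to 3 as the only controls and −0.53 with arrays 4 and 5. Of 18 measured genes of glycogen and hexose side branches 11 fell and 3 rose, with a median change of −0.33. Pgm3 fell by 0.96 ± 0.06, Pgm1 by 0.89 ± 0.06 and Pygb, a glycogen phosphorylase, by 0.67 ± 0.08. Pgm1 fell by 0.43 with the average of its probe sets, and Pygb by 0.44 with RAS-ON arrays 4 and 5 as the only controls.

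Hypoxia-inducible factor (HIF) genes and targets were listed because many glycolytic genes are known targets. Of 20 measured targets outside the set 12 fell and 5 rose, with a median change of −0.27. Among those that rose is the phosphofructokinase regulator Pfkfb2, which is also counted with the further isoforms above. Egln3, an oxygen-sensing hydroxylase that is itself a target, fell by 2.02 ± 0.11 (adjusted p = 1.32e-09), from a mean of 9.79 to 7.77. Ankrd37 changed by −1.18 ± 0.09 and Narf by 1.04 ± 0.06. Among 8 measured subunit and regulator genes 4 rose and 1 fell. Epas1, the HIF2 alpha subunit, rose by 0.95 ± 0.09 (adjusted p = 3.2e-07), or by 0.39 with the average of its probe sets. Hif3a rose by 0.34 ± 0.06 (adjusted p = 0.000144), but its average gave 0.03 (adjusted p = 0.579). Hif1a fell by 0.27 ± 0.08 (adjusted p = 0.00852), and its adjusted p was 0.0728 with the average of its probe sets, 0.204 with the replicate block and 0.101 with RAS-ON arrays 1 to 3 as the only controls. Myc, another known activator of glycolytic genes, fell by 0.41 ± 0.10 (adjusted p = 0.00348), and its change was −0.24 (adjusted p = 0.157) with RAS-ON arrays 4 and 5 as the only controls. The brightest Nras probe set changed by −0.31 ± 0.09 (adjusted p = 0.00725), with an adjusted p of 0.185 under the replicate block and 0.079 with RAS-ON arrays 1 to 3 as the only controls. Whether this probe set reads the transgene is not known from the sources used here.

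The promoters of 6 genes are shown because they include members that fell (Ldha, Pgk1, Pkm and Slc2a1) and members that rose (Slc16a1 and Bpgm). They were chosen after their values were seen. Ldha and Pkm have 2 listed promoters each, and the entry with more of the motifs marked below is shown. Sequences are from RefSeq for GRCm38.p6 and run on the + strand from 250 bases before to 50 bases after the listed start, 300 bases each. Capitals mark CACGTG, the palindromic E-box bound by Myc and its relatives, and ACGTG on either strand outside it, the core of the hypoxia response element.
Ldha, chr7:46845554-46845853: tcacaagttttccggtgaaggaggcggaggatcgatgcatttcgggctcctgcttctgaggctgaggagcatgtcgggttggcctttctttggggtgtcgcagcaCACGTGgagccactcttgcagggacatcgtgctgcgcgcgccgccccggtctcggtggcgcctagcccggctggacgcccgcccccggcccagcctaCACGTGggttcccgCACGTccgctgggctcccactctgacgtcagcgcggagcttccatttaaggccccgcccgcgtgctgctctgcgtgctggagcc
Pgk1, chrX:106186850-106187149: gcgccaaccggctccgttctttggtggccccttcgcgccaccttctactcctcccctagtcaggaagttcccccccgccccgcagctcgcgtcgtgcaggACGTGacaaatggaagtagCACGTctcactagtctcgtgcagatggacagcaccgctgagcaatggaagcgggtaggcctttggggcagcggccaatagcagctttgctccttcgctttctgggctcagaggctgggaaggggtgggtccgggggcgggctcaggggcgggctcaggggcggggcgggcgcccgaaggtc
Pkm, chr9:59656977-59657276: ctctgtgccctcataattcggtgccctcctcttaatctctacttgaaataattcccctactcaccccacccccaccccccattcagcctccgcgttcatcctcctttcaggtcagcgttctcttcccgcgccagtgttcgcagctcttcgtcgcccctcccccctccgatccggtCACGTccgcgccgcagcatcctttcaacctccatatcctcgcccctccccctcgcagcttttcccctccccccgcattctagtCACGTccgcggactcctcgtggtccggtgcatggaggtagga
Slc2a1, chr4:119108495-119108794: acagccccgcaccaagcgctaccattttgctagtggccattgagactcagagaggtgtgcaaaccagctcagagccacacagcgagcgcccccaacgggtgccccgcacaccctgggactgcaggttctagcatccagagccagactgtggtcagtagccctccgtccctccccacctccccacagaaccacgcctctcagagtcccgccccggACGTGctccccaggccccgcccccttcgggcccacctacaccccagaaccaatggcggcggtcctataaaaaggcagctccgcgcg
Slc16a1, chr3:104638414-104638713: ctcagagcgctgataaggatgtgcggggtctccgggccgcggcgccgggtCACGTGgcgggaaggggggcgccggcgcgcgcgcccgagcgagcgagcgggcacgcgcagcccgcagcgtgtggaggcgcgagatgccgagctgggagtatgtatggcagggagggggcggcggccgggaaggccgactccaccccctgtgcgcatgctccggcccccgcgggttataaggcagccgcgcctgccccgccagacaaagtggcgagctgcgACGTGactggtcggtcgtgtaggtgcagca
Bpgm, chr6:34476106-34476405: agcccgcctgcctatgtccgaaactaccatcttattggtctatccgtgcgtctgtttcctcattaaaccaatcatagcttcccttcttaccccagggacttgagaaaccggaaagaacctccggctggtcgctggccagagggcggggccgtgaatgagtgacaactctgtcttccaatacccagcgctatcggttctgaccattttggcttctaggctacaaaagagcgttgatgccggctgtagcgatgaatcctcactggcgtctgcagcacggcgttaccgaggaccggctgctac
The Ldha promoter shown holds CACGTG from −145 and from −48 and ACGTG from −34, counted with 0 at the listed start. In the entries of Ldha and Pkm that are not shown, neither motif was found. Pgk1 holds ACGTG from −150 and from −131, Pkm from −75 and from 8, and Slc2a1 from −36. Slc16a1 holds CACGTG from −200 and ACGTG from 20, and Bpgm holds neither.

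Of the 37 genes 36 had an entry, with 51 promoters in all. CACGTG was in 4 of the 51 (7.84%), where 7.15% of all 32851 listed promoters held it. ACGTG outside CACGTG was in 19 of the 51 (37.3%), from 17 genes, where 13.6% of all promoters held it. By direction of change it was in 12 of 26 promoters of genes that fell (46.2%) and in 4 of 14 promoters of genes that rose (28.6%). A match of letters is a description of the window and not a binding site, and promoters of 1 gene overlap.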

How the data were processed

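Total RNA from leukaemic spleens was hybridised to Affymetrix mouse arrays, 15 in all. The authors deposited linear intensities processed with RMA, per the submitters' processing notes. That the values are linear was read from their range (minimum 8.57), and log2 was taken here. RMA normalises across arrays, so changes are relative to the bulk of genes. Of 45101 probe sets 34945 had 1 symbol in the platform annotation, 932 several, 9160 none and 64 were controls, used only where a gene had no other probe set. Precision is limited by the number of arrays.

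Each gene's brightest probe set entered limma 3.58.1 in R 4.3.3 (1 mean per group, eBayes, two-sided, Benjamini-Hochberg over 18194 genes). The text names every member, the 3 called genes of each context list with the largest changes, and Hif1a, Epas1, Myc and Nras. Pfkfb2 was added after its values were seen, and alternatives were not run for it. Scripts were tested on simulated data. Members, lists, pairs and alternatives were chosen with earlier results of these data known. Alternatives were the mean of probe sets, a filter on dim genes, a replicate block, each array or time left out, and subsets of RAS-ON arrays.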

Additional observations from a re-analysis of the deposited data

Results flagged for a closer look

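A slope that differed from 0 means that the change against RAS-ON was not the same at all RAS-OFF times. This was so for 15 of the 34 measured genes by limma over all genes. The slopes per 12 h on the log2 scale were −0.12 for Slc2a3, −0.14 for Hk2, 0.11 for Pfkm, −0.14 for Pfkp, −0.16 for Pfkfb3, −0.17 for Pfkfb4, −0.10 for Aldoa and −0.11 for Gapdh. They were −0.13 for Pgk1, −0.18 for Pgam1, −0.29 for Pkm, 0.12 for Bpgm, −0.09 for Ldha, 0.15 for Slc16a1 and −0.23 for Pgd. The slopes of Pfkfb3 (−0.05 with the mean of its probe sets), Pfkfb4, Pgam1 and Pgd stayed past the threshold under every alternative that was run, and those of the other 11 did not.

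In 2 genes RAS-ON replicate 3 lay far from the other RAS-ON arrays, by Dixon's critical value of 0.71 for 5 arrays. Aldoa was at 13.08 there and at 12.93 to 12.97 on the others, with a gap of 0.740 of the range. Ldhb was at 9.51 there and at 9.79 to 9.88 on the others, with a gap of 0.757 of the range. About 5% of groups would be picked out by chance at this value, and 34 genes were examined.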

How the results depend on the processing

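Of the 29 called changes 21 stayed past the threshold and kept their direction in every alternative run for them, as did 4 of 15 slopes and 9 of 11 isoform pairs. There were 30 alternatives for a change or slope and 26 for a pair, since 4 of them concern only the limma fit. Without the dimmest 40% of genes Slc16a3 and Eno2 were not tested, which leaves 29 for them and 25 for Slc16a1 minus Slc16a3. The 8 changes that did not were those of Hk1, Hk3, Pfkl, Pfkfb4, Pklr, Ldhb, Taldo1 and Rpe. The cause of these losses was not tested. With the replicate block the members that rose numbered 5, against 10, and at 60 h and 72 h 4 and 4, against 8 and 7. That block leaves RAS-ON arrays 1 and 2 as the only controls. Deviations of same-numbered arrays from their group means correlated at −0.24 to 0.22 (median −0.06 over 30 pairs, 5 of them above 0.1). With 2 arrays per RAS-OFF time these deviations mirror each other, so pairs of RAS-OFF arrays are counted under both numbers. No pairing by number was seen, but the check is too weak to exclude it. Without replicate 1 of the 48, 84 and 96 h groups 0 upward and 4 downward slopes were called, with fewer arrays. Leaving out each array in turn gave 9 to 10 members higher and 19 to 21 lower, 3387 to 3624 genes higher and 4605 to 5278 lower, and 11 to 12 isoform pairs. By time, members higher and lower were 6 to 9 and 8 to 16 at 48 h, 4 to 8 and 11 to 17 at 60 h, 4 to 7 and 14 to 18 at 72 h, 4 to 6 and 15 to 20 at 84 h, and 5 to 6 and 16 to 20 at 96 h. Upward slopes were 2 to 3 and downward 10 to 12, and context genes 17 to 20 higher and 60 to 71 lower.

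Signs turned for Ldha minus Ldhb, which was 0.037 with the mean of probe sets, and otherwise for values that were not called. The mean of probe sets also gave a Pklr slope of 0.030. Leaving out each array in turn gave −0.011 to 0.204 for Aldoa minus Aldoc and 0.000 to 0.087 for the Pdk3 change. The same ranges were −0.105 to 0.003 for the Slc2a1 slope, −0.089 to 0.022 for Hk1, −0.001 to 0.023 for Eno2, −0.048 to 0.008 for Pklr and −0.002 to 0.030 for Rpia. With RAS-ON arrays 1 to 3 as the only controls Pfkl minus Pfkp was −0.123. With arrays 4 and 5 as the only controls Slc2a1 minus Slc2a6 was −0.037, Aldoa minus Aldoc −0.210, Hk2 0.012, Eno2 0.066 and Pdk3 −0.069. The Hk1 slope was 0.017 without the 48 h arrays and 0.020 without replicate 1 of the 48, 84 and 96 h groups, where the Pklr slope was 0.033. Without the 96 h arrays the Pklr slope was 0.016 and the Rpia slope −0.027. With 2 arrays per time, the counts at a single time are the least precise.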

Other observations

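Genes downstream of glycolysis also moved. Of 16 measured citrate cycle genes 11 fell and 1 rose, with a median change of −0.23. Sdhc, a succinate dehydrogenase subunit, changed by −0.65 ± 0.11, Fh1, fumarase, by −0.49 ± 0.05, and Suclg1, a succinyl-CoA ligase subunit, by −0.45 ± 0.07. Of 14 measured genes that supply NADPH outside the pentose phosphate pathway or shuttle reducing equivalents into mitochondria 12 fell and 0 rose, with a median of −0.49. Slc25a13, the aspartate and glutamate carrier citrin, changed by −1.44 ± 0.07, Idh2 by −0.81 ± 0.09 and Got1 by −0.79 ± 0.07. Of 5 measured genes of the serine branch 2 fell and 0 rose: Phgdh, the first enzyme of serine synthesis, by −0.87 ± 0.12, and Psat1, the next, by −0.92 ± 0.13. Averaging probe sets gave −0.42 for Idh2, −0.56 for Phgdh and −0.43 for Sdhc, whose change was −0.42 with RAS-ON arrays 4 and 5 as the only controls. Over all genes 28.7% were called lower in the same comparison. The cell type markers that rose or fell over the same arrays are given above, and their part here was not tested.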
